A study of Mus musculus with 6 samples.

Results

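Oxidative phosphorylation is described here in mouse 427.1.86 thymoma cells (427 cells) through the nuclear genes of its 5 complexes. Members were chosen by name: every gene whose symbol begins with Nduf, Uqcr, Cox4 to Cox8 or Atp5, and the 4 genes Sdha to Sdhd, with 1 locus kept per symbol. The rule found 88 genes among 22601 loci with a gene symbol. It also covers subunits encoded by mitochondrial DNA, for which it matched 0 rows, and these are not analysed here. The same holds for 5 nuclear names on the subunit and assembly list, among them Cox4i1, Ndufb8 and Atp5o.

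Complexes I to IV form the respiratory chain of the inner mitochondrial membrane. Complexes I (NADH dehydrogenase) and II (succinate dehydrogenase) pass electrons to ubiquinone, complex III passes them to cytochrome c, and complex IV (cytochrome c oxidase) passes them to oxygen. Complexes I, III and IV pump protons as they do so, and complex V (ATP synthase) uses the proton gradient to make ATP. All but complex II combine subunits from the nucleus with subunits from mitochondrial DNA, and the nuclear genes are known to be expressed broadly and together.

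The study asked what the intracellular domain of the membrane protease epithin/PRSS14 (EICD) does to gene expression, and 6 libraries were made, 1 per condition. In the first pair, 427 cells stably carrying empty pSUPER vector were kept without serum for 2 h and then given DMSO or 1 µM of phorbol 12-myristate 13-acetate (PMA), a phorbol ester that induces shedding of the protease, for 2 h. In the second pair, cells labelled as an SPPL2b knockdown (SP2bKD) were handled in the same way; SPPL2b is a protease that the study examined for the release of EICD from the membrane. In the third pair, SP2bKD cells were transfected with GFP vector alone (GFP) or with GFP vector and Flag-tagged EICD (GFP plus EICD), and GFP-positive cells were sorted. The labels name an siRNA for the knockdown, whereas the study's methods describe a stable shRNA, and clone 10, from a single cell, for the transfections. Values below are given in the order 427 DMSO, 427 PMA, SP2bKD DMSO, SP2bKD PMA, GFP, and GFP plus EICD.

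The deposited unit is the FPKM, a count of fragments scaled to transcript length and library size, so that levels of different genes can be set side by side. With 1 library per condition there is no replicate error and no test, and every difference below is a difference between libraries. Sppl2b, the targeted gene, was not lower in the SP2bKD DMSO and PMA libraries than in the 427 library of the same treatment: its FPKM was 9.90, 6.86, 13.4, 9.37, 11.4 and 13.2. The GFP and GFP plus EICD libraries have no 427 library of the same treatment, and both lay above the 2 values of 427 cells. The level of this transcript thus goes against the knockdown label of the 4 libraries, with 1 value in each. The study itself reported lower SPPL2b mRNA by real-time PCR, and less EICD, in its knockdown clones. Here "SP2bKD" means the library labelled so. St14, the gene of epithin/PRSS14, had 69.6 FPKM in the GFP and 615 in the GFP plus EICD library, and the transfected construct holds part of its sequence. Depth was estimated at 2.55e+07 to 2.92e+07 fragments per library. The 5 epithelial markers, St14 among them, lay between 41.2 and 615 FPKM, with a summed level of 529.7 to 1215. The 615 was St14 with GFP plus EICD, which can hold fragments of the construct. The highest value of another marker was 403, for Krt8 in the SP2bKD PMA library. In contrast, 4 of 7 T lymphoid markers were at 0 in every library and the highest, Rag1, reached 3.50. The cells thus carry the epithelial and not the lymphoid markers of the lists. The 4 fibroblast and 3 erythroid markers did not exceed 1.99 and 2.52 FPKM.

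Of the 88 members, 82 reached an FPKM of 1 in at least 1 library, 71 had 10 or more in every library, and 27 had 100 or more in every library. Their summed FPKM was 10548, 12014, 12321, 10584, 11122 and 9444. The sum was thus highest with DMSO in SP2bKD cells and lowest with GFP plus EICD. The top rank rests on Atp5b: without it the sum was 9955 with DMSO in SP2bKD cells and 10604 with PMA in 427 cells, and it was still lowest, at 8185, with GFP plus EICD. Atp5b, the catalytic beta subunit of ATP synthase (chromosome 10, 128083273 to 128090391, GRCm38), was the highest member in each library, with an FPKM of 1128, 1409.5, 2366, 1432, 1570.0 and 1259. The SP2bKD DMSO library stood above all others for Atp5b. Atp5a1, the alpha subunit that alternates with it in the same ring, had 432, 429.8, 350.2, 307, 349.7 and 299. Beta thus stood above alpha in each library, and the libraries differed in how far.

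Levels were ordered by complex. Over members that reached an FPKM of 1 in a library, the median of the mean FPKM was 185 for complex IV, 180.2 for complex V and 129 for complex III. It was 64.7 for accessory subunits of complex I, 64.3 for complex II, 63.1 for the core of complex I, and 12.4 for the complex I assembly factors. The 6 members left out all belong to complex IV, and with them its middle member would be Cox7a2l, at 93.1. The top rank of complex IV thus rests on this filter. The ranges overlapped between all neighbours in this order, for example from 11.1 to 537 for accessory subunits and from 34.8 to 121 for complex II. Ndufs4, an accessory subunit of the NADH-oxidizing arm, was the highest of complex I, with 337, 619, 570.2, 575, 614 and 509 FPKM. It was low in 1 library only, 427 DMSO. Ndufa1, a small membrane-arm subunit encoded on the X chromosome, came next with a mean of 187. In the core, Ndufv1, which binds FMN, had a mean of 82.1. In complex II they were Sdha, the flavoprotein, at 121, and Sdhd, a membrane anchor, at 85.8. In complex III they were the small subunits Uqcr10 at 210.2 and Uqcrh at 182, and in complex IV Cox6a1 at 441 and Cox7c at 387. Ndufaf2, an assembly factor, was at 116, against 14.5 for Ndufaf1, the next of its group.

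**Figure D1:**
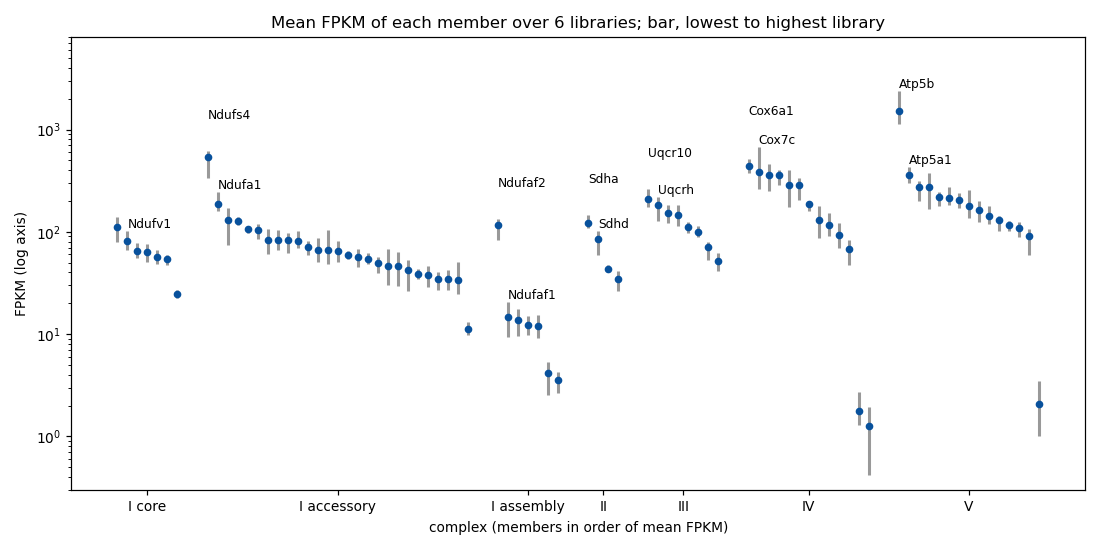
FPKM on a log axis of the 81 members with an FPKM of 1 or more in a library that belong to a complex list, grouped by complex and ordered by mean. Points are means over the 6 libraries and bars run from the lowest to the highest library. Atp5b stands above all others at a mean of 1527, and 2 members of complex IV lie near 1.

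Several subunits of complex IV exist as forms for muscle, testis or low oxygen beside a ubiquitous form. The ubiquitous forms dominated in each library. Cox6a1 had between 373 and 511 FPKM, while Cox6a2, the heart and muscle form, was listed at 0 in 4 libraries and reached 0.439 with GFP plus EICD, an estimated 7.94 fragments. Cox8a had 288 to 399, and Cox8b and Cox8c were at 0 throughout. Cox6b1 had 174 to 399 and Cox6b2, a testis form, was at 0. Cox4i2, a lung form, was listed above 0 in 1 library, at 0.0641. Ndufa4 had 203 to 336.8, and Ndufa4l2, a form known from hypoxia, did not exceed 0.0802. Cox7a1, the muscle form, had 0.871, 1.248, 1.18, 1.95, 0.417 and 1.91, beside 47.4 to 83.0 for Cox7a2 and 69.8 to 122 for Cox7a2l, a factor of supercomplex assembly. Cox7b had 87.6 to 179.9 and Cox7b2 1.28 to 2.69. The 3 genes Atp5g1 to Atp5g3 encode the same mature c subunit of the ATP synthase rotor, and Atp5g3 was the highest of them in each library, at 179 to 244. Atp5g1 had 89.5 to 124 and Atp5g2 59.9 to 107.

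The lines differed in part of the members. In 25 of 82 members (30.5%) all 4 SP2bKD libraries lay below both 427 libraries, whereas 8.98% of the 11062 loci with a symbol did so. In 7 members (8.54%) all 4 lay above, against 10.6% of all loci. Where a library reached an FPKM of 50, the members below were 24 of 64 (37.5%), against 13.0% of all such loci. As a size, the line difference was taken as the mean log2 FPKM of the SP2bKD libraries minus that of the 427 libraries. Its median was −0.12 over members and 0.04 over all loci. The line differences of the 25 members ran from −0.82 to −0.12.

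Of 27 accessory subunits of complex I 10 were below and 0 above. Ndufc2, a membrane-arm subunit (chromosome 7, 97400003 to 97407802), had 68.1, 61.3, 39.3, 36.3, 40.7 and 30.3 FPKM, a line difference of −0.82. Its highest SP2bKD library thus lay well under its lower 427 library. Ndufa13, an accessory subunit that spans the membrane, had 50.8, 44.9, 24.6, 24.5, 30.7 and 28.8, also −0.82. Its locus overlaps others on both strands and 2 rows carry its symbol, so that fragments could be split between them. Ndufab1, the mitochondrial acyl carrier protein, had 157, 172, 73.9, 154, 123 and 98.2. Its SP2bKD values ranged widely, and 1 of them came close to the 427 libraries. Ndufb4, a membrane-arm subunit, had 51.7, 53.3, 26.6, 38.3, 43.6 and 38.8. Among these accessory subunits Ndufb11 was the narrowest case, with at most 111 FPKM in an SP2bKD library against 112 in the lower 427 library.

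The core of complex I was divided. Ndufv2 and Ndufs1, iron-sulfur subunits of the NADH-oxidizing arm, were below, with line differences of −0.43 and −0.28. Of 3 core subunits above, Ndufv1 and Ndufs8, which carry electrons within that arm, had line differences of 0.38 and 0.32. Ndufv1 had 70.2, 66.2, 101, 76.5, 90.7 and 88.3 FPKM. Ndufaf7 and Ndufaf3, assembly factors of complex I, were also above, the latter at only 2.55 to 5.27 FPKM.

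In complex II, Sdha (147, 125, 120.4, 108, 117 and 110.1) and Sdhb (47.6, 45.5, 40.1, 40.2, 42.0 and 42.1), which together form its catalytic part, were below. The membrane anchors Sdhc and Sdhd overlapped between the lines. In complex III, Uqcrfs1, the Rieske iron-sulfur protein, and Uqcrc2, a core protein, were below, each with a line difference of −0.28. In complex IV, 4 of 13 were below and 2 above. Cox6b1, a subunit on the cytochrome c side, had 369.8, 399.0, 174, 299, 273 and 218, and Cox5b, a zinc-binding subunit, 139, 154, 107, 101, 112 and 90.0. Cox7b and Cox7a2 were below as well, with −0.49 and −0.46. Cox8a and Cox7a2l were above, with 0.25 and 0.42.

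In complex V, 5 of 15 members were below and 0 above: Atp5k, Atp5a1, Atp5g1, Atp5j and Atp5f1. Atp5k, which takes part in dimers of the synthase (chromosome 5, 108433244 to 108434448), had 375, 360.2, 168, 268, 261 and 197 FPKM. The other 4 had line differences between −0.40 and −0.14. Of the 32 members below or above, 10 share part of their locus with another gene, Atp5j and Atp5f1 among them.

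**Figure D2:**
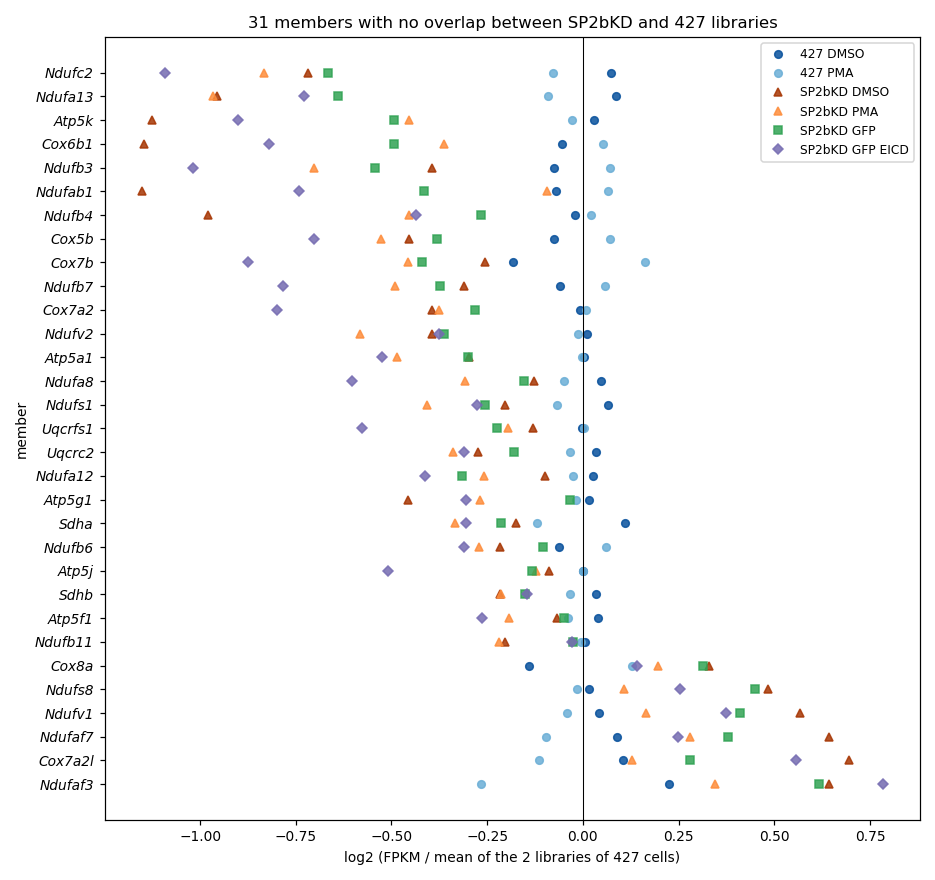
Log2 of the FPKM in each library over the mean of the 2 libraries of 427 cells, for the 25 members below and 6 of the 7 above, ordered by the line difference. Circles are 427 libraries, triangles SP2bKD DMSO and PMA, squares GFP and diamonds GFP plus EICD. The members shown were chosen for having no overlap; from Ndufc2 at −0.82 to Ndufaf3 at 0.62 the spread within SP2bKD is often as wide as the gap between the lines.

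Leaving out libraries can only keep or raise the counts below and above, so it cannot show whether these counts hold. It does allow a comparison with all loci. With each library left out in turn, 25 to 36 of 82 members (30.5% to 43.9%) were below. The share of all loci below was 9.94% to 19.4%, and it was under that of the members each time. With the DMSO and PMA libraries only, which shared their handling, 29 of 82 (35.4%) were below, against 16.3% of all loci. The count above changed more, and the share of all loci moved with it. It was 11 without 427 DMSO (13.4%, against 32.2% of loci), 16 without 427 PMA (19.5% against 16.7%), 12 without SP2bKD PMA (14.6% against 19.7%) and 11 without GFP plus EICD (13.4% against 13.5%). With the DMSO and PMA libraries only it was 13 (15.9% against 19.7%). Members have short transcripts, with a median length of 1105.5 bases for the longest annotated transcript against 3426 for all loci. In loci with transcripts under 1000 bases 32.4% of members were below, against 16.7% of all, and for transcripts over 2000 bases the shares were 36.8% and 7.84%.

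The lines also differed by chromosome. Over the 351 loci on chromosome 19 the median line difference was 0.37, and 45.3% of the loci lay above; all 3 members there, Ndufv1, Ndufs8 and Cox8a, were among the 7 above. On chromosome 17, with a median of 0.13, lay Cox7a2l and Ndufaf7, and also Ndufv2, which was below. Chromosome 8 had a median of −0.17 with 25.8% of loci below, and both of its members, Ndufa13 and Ndufb7, were below. On the X chromosome, with a median of −0.12 and 26.6% of loci below, Cox7b and Ndufb11 were 2 of 3 members below. On chromosome 7, in contrast, the median was −0.03 and 8.40% of loci were below, yet 4 of 7 members were, namely Cox6b1, Ndufab1, Ndufc2 and Uqcrc2. The part of chromosome in the result was not tested, and the line, the clone and the knockdown cannot be told apart.

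**Figure D3:**
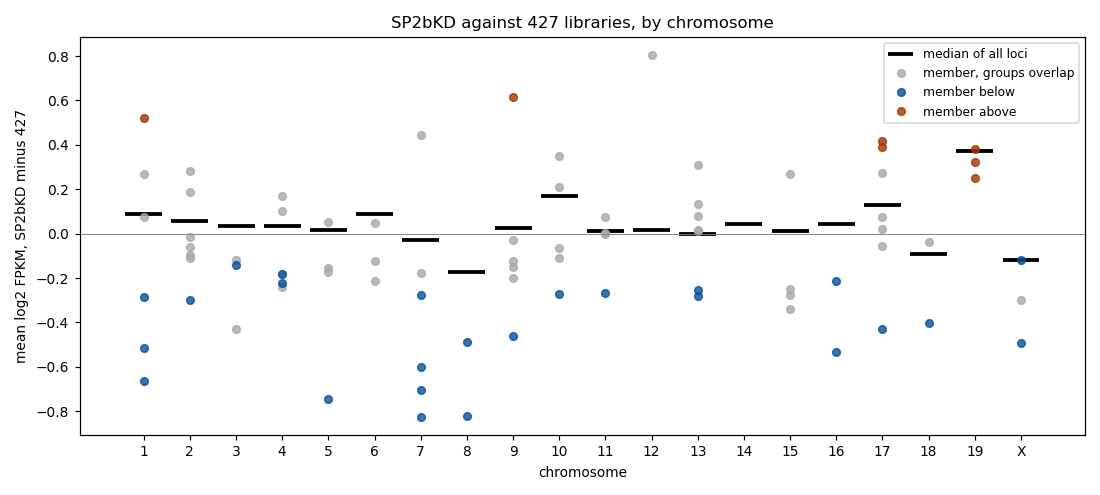
Line difference (mean log2 FPKM of the 4 SP2bKD libraries minus that of the 2 libraries of 427 cells) for each member with an FPKM of 1 or more in every library, by chromosome. Thick lines are medians of all loci on the chromosome. The 3 members on chromosome 19 lie near its median of 0.37, while Ndufc2, Cox6b1 and Ndufab1 on chromosome 7 lie at −0.82, −0.70 and −0.60, under its median of −0.03.

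Promoters are shown for some of the members below and above, because nuclear respiratory factor 1 (NRF1), the ETS factor GABP and YY1 are known regulators of these genes. Of the 82 members, 68 matched a RefSeq promoter (GRCm38.p6), from 250 bases before to 50 bases after the start. The letters searched on both strands were GCGCANGCG for NRF1, CCGGAAG for ETS, AAGATGGCG for YY1, and TATAAA. NRF1 letters were in 21 of 68 (30.9%), against 16.4% of the promoters of loci that reached an FPKM of 1 and 7.03% of all promoters. YY1 letters were in 7 (10.3%), against 3.92% and 1.64%. ETS letters were in 17 (25%) against 21.5% of expressed loci, and TATAAA in 6 (8.82%) against 8.30%. NRF1 letters were in 4 of the 21 members below with a promoter, and in 0 of the 6 above. The share among members below was thus under the 30.9% of the 68 members and nearer the 16.4% of expressed loci. Most members below held no NRF1 letters. ETS letters were in 6 of the 21 below and in 2 of the 6 above, Ndufs8 and Cox8a. The sequences printed are examples and do not stand for the members below or above as groups. Atp5k, Ndufb4 and Sdha are printed as members below that hold NRF1 letters, and Ndufv1 as a member above without any of the letters in the stretch printed. Each runs 5′ to 3′ from 250 bases before the start to 30 after it, on the minus strand, at chr5:108434370-108434649, chr16:37654339-37654618, chr13:74350211-74350490 and chr19:4012726-4013005. Capitals mark the NRF1 letters of either strand and, in Atp5k close to the 3′ end, the ETS letters.
Atp5k: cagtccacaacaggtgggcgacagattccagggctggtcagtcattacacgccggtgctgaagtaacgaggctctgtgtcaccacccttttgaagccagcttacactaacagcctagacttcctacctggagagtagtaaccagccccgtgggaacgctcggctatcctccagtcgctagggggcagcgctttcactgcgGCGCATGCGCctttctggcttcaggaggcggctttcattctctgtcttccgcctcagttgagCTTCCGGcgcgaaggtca
Ndufb4: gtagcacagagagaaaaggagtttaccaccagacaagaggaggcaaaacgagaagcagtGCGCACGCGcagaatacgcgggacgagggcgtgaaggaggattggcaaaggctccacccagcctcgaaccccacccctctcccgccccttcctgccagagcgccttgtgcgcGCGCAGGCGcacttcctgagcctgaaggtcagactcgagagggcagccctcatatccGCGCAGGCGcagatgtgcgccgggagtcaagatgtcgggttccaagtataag
Sdha: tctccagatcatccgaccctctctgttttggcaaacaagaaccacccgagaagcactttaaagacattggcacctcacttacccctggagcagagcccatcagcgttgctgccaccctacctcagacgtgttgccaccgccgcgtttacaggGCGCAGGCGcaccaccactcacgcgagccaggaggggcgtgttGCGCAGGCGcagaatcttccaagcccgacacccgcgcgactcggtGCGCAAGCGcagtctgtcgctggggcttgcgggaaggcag
Ndufv1: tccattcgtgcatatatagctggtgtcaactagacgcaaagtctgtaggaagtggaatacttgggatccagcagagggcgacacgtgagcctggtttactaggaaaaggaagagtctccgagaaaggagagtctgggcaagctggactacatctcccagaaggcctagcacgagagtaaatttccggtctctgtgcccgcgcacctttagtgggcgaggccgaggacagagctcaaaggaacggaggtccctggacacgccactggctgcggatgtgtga
In Atp5k the NRF1 letters began 50 and 49 bases before the start and overlap each other on opposite strands. Ndufb4 held them 191, 79 and 22 bases before the start and Sdha 98, 55 and 10 bases before it. These are matches of letters, and no binding was measured.

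With DMSO, SP2bKD against 427, 11 of 82 members were more than 1.5-fold higher and 7 lower, against 8.25% and 6.3% of loci (0.01 FPKM was added to both libraries, and an FPKM of 1 in either was required). The member median was a log2 ratio of 0.06, and 0.05 over all loci. Highest were Atp5s, a coupling factor present at 1.01 and 2.87 FPKM, Cox7c with 1.33, and Atp5b with 1.07. Among those that followed were Ndufaf5, Ndufs6, Ndufs4, Atp5l, Atp5sl, Cox7a2l and Uqcr10, with log2 ratios between 0.88 and 0.59. Lower were Atp5k, Cox6b1, Ndufab1 and Ndufa13, with −1.15 to −1.04, then Ndufb4, Atp5g2 and Ndufc2.

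With PMA, 2 were higher and 6 lower, against 6.22% of loci in each direction, and the member median was −0.18, with 63 of 82 (76.8%) below 0, while over all loci the median was 0.02 and 46.5% were below 0. Level and transcript length moved with this result too. All loci that reached an FPKM of 50 had a median of −0.03 with 54.7% below 0, and those with transcripts under 1000 bases −0.16 with 72.1% below 0. The members with such short transcripts had a median of −0.25 (30 of 34 below 0), and those with transcripts over 2000 bases −0.16, against 0.04 for all loci of that length. Ndufa13 (−0.87), Ndufb3 (−0.77) and Ndufc2 (−0.75) were lowest, and Cox7b2, Cox7b and Cox5b also passed. Cox7a1 and Ndufaf3 were higher, at under 4 FPKM. Ndufa13 and Ndufc2 were more than 1.5-fold lower with both treatments, and no member was higher with both. The share of all loci past 1.5-fold with both was not counted.

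Some members had their highest or lowest value in the SP2bKD DMSO library. Cox7c, a small subunit of complex IV (chromosome 13, 86044816 to 86046904), had 271, 436, 681, 336, 337 and 262 FPKM, and Atp5b was highest in the same library. Both were more than 1.5-fold above every other library there; these 2 of 82 members (2.44%) compare with 3.15% of loci that stood as far above or below all other libraries. In the same library Atp5k, Cox6b1, Ndufab1, Ndufb4 and Atp5g2 were at their lowest. Of the 71 members that reached an FPKM of 10 in all libraries, 10 were lowest and 25 highest there, against 13.6% and 24.4% of loci. Over the same 71 members, the log2 deviation was taken from the member's median over the 6 libraries. Its SD was 0.33 in this library and 0.26 and 0.23 in the 427 DMSO and PMA libraries. In SP2bKD PMA, GFP and GFP plus EICD it was 0.12, 0.11 and 0.22. Over all loci at that level the SD was 0.29 in the SP2bKD DMSO library and lay between 0.23 and 0.34 in the 6 libraries.

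With PMA in 427 cells the member median was a log2 ratio of 0.03, against −0.12 over all loci. Loci that reached an FPKM of 50 also had a median of 0.03. Of these loci 45.9% were below 0, as were 45.1% of members, and 10.1% were more than 1.5-fold higher and 3.39% lower. In all, 5 were more than 1.5-fold higher and 0 lower, against 8.1% and 14.4% of loci. They were Ndufs4 (0.88), Cox7c (0.69), Atp5s (0.67), Ndufaf5 (0.63) and Cox7b2 (0.60). By complex, 12 of 13 members of complex IV and 6 of 8 of complex III had ratios above 0, with medians of 0.23 and 0.17. Over all loci 62.8% were below 0. All 7 core subunits of complex I and all 4 of complex II had ratios below 0, with medians of −0.10 and −0.17. In loci with transcripts under 1000 bases the median was 0.13 for members and 0.12 for all loci.

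In SP2bKD cells 5 members were higher with PMA and 8 lower, against 7.89% and 16.5% of loci. The member median was −0.16, beside −0.15 over all loci. Loci that reached an FPKM of 50 had a median of −0.03 with 53.6% below 0, while 64 of 82 members (78.0%) were below 0. Of the loci at that level 9.15% were higher and 6.07% lower past 1.5-fold. Higher were Ndufab1 (1.06), Cox6b1 (0.78), Cox7a1 (0.72), Atp5k (0.67) and Cox6c (0.62). Lower were Atp5s (−1.37), Cox7c (−1.02), Ndufs6 (−0.91), Atp5sl (−0.84) and Atp5b (−0.72), and then Ndufv3, Atp5l and Cox7b2. All 7 core subunits of complex I were again below 0, with a median of −0.20, as were 64.4% of all loci. Ndufab1, Cox6b1 and Atp5k are members that were low, and Cox7c, Ndufs6 and Atp5b members that were high, in the SP2bKD DMSO library, to which this ratio is taken.

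Each line has its own control. Past 0.32 on the log2 scale in each line, 5 of 82 members (6.10%) moved in opposite directions, all higher in 427 and lower in SP2bKD cells, against 1.30% of loci. They were Uqcr10, Ndufaf5, Cox7b2, Cox7c and Atp5s. Each had a higher FPKM in the SP2bKD DMSO than in the 427 DMSO library, to which the ratios are taken, with 681 and 271 for Cox7c. In the DMSO and PMA libraries Cox7b2 and Atp5s lay between 1.01 and 2.87 FPKM. Another 5 (6.10%) moved in the same direction, against 32.8% of loci: Cox6c and Cox7a1 were higher in both, and Ndufaf1, Ndufaf6 and Atp5sl lower in both. The difference between the lines was not tested.

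**Figure D4:**
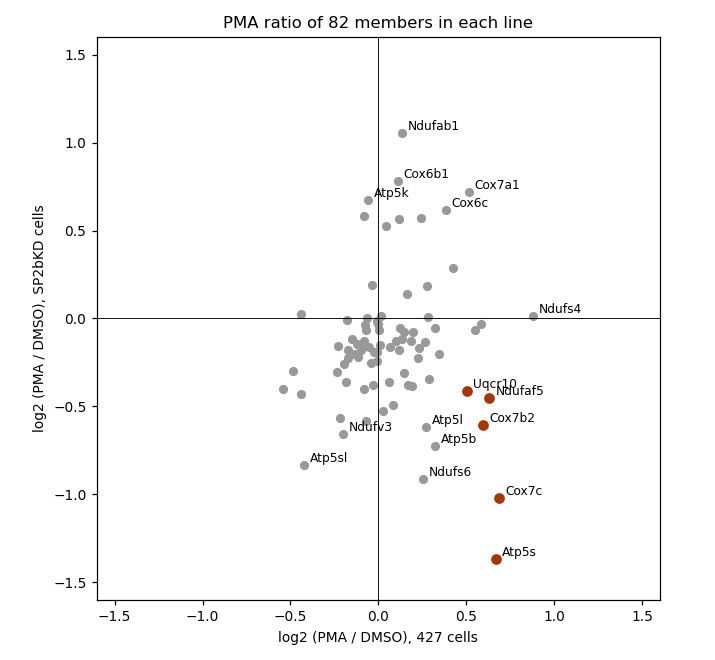
Log2 ratio of PMA over DMSO for the 82 members in 427 cells (horizontal) and in SP2bKD cells (vertical). Coloured points are the 5 members past 0.32 in opposite directions, and labelled grey points are past 1.5-fold in a line. Most members lie within 0.5 of 0 on the horizontal axis and a little under 0 on the vertical one, with medians of 0.03 and −0.16.

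With GFP plus EICD against GFP, 67 of 82 members had a lower FPKM, and the median log2 ratio was −0.22, whereas over all loci it was 0.07 and 41.7% were lower. Single members moved little. Past 1.5-fold, 2 were higher and 2 lower, against 10.5% and 2.6% of loci (0.01 FPKM was added to the numerator alone). Uqcrh, the hinge protein of complex III, had 206 FPKM with GFP and 126 with GFP plus EICD, a log2 ratio of −0.70, and the latter was its lowest of the 6 libraries. Cox7b2 (−0.996), Atp5s (0.62) and Cox7a1 (2.21) were at under 4 FPKM. For Cox7a1 the GFP library held an estimated 5.15 fragments and the GFP plus EICD library 24.7.

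The complexes differed in their medians. Complex IV was at −0.32 with 11 of 13 members lower, complex III at −0.28 with 7 of 8, and complex V at −0.27 with 14 of 15. Accessory subunits of complex I were at −0.17 with 22 of 27 lower, while its core and complex II were both at −0.04. In complex V, Atp5e, the epsilon subunit, went from 274 to 202 FPKM and Atp5g3 from 243 to 179, and Atp5s was the one member that was higher. In complex II, Sdhd went from 82.2 to 59.3 and Sdhc from 33.2 to 41.2. Cox7a2 (−0.52) and Cox7a2l (0.28), which can take the same place in complex IV, had opposite signs.

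The GFP plus EICD library was the lowest of 6 for 35 of the 71 members with an FPKM of 10 or more throughout, against 24.5% of all loci at that level. Level and transcript length moved with this result. The median over all loci that reached an FPKM of 50 was −0.10, and 63.4% of these were lower. Over all loci it was −0.18 for transcripts under 1000 bases, −0.03 for 1000 to 2000 and 0.09 over 2000. The member medians in these classes were −0.27 (31 of 34 lower), −0.13 (20 of 29) and −0.23 (16 of 19), and so lay under that of all loci in each.

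**Figure D5:**
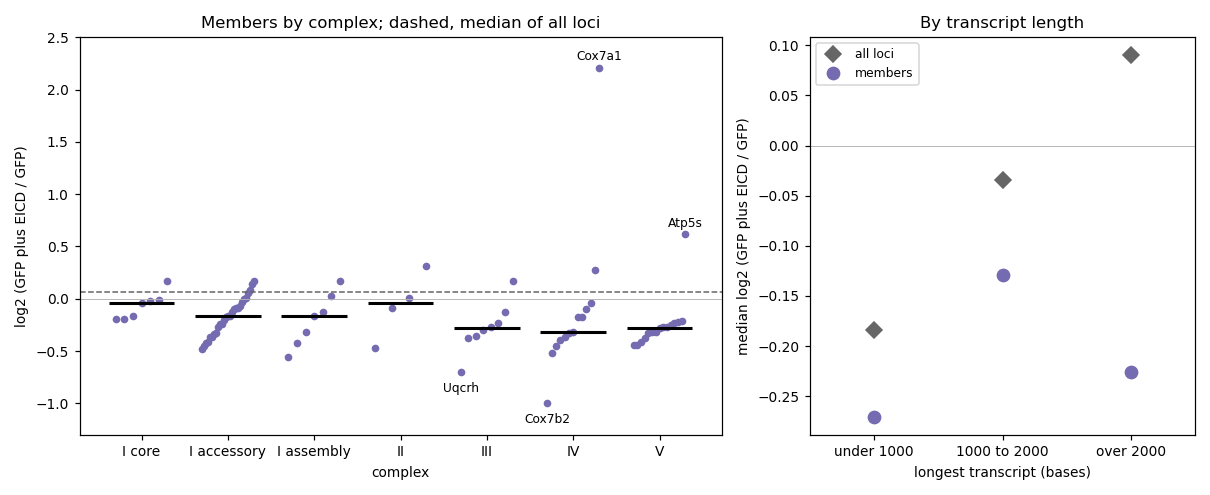
Left, log2 ratio of GFP plus EICD over GFP for each member by complex, with the median of the complex as a thick line and the median of all loci, 0.07, dashed. Right, medians of members and of all loci in 3 classes of transcript length. Members lie mostly between −0.5 and 0.2, and their medians of −0.27, −0.13 and −0.23 are under those of all loci in each class.

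GFP against DMSO in SP2bKD cells compares libraries that differ in transfection, sorting, serum and DMSO, which cannot be told apart. The member median was −0.06, and −0.08 over all loci. There, 5 members were higher and 6 lower past 1.5-fold, against 8.01% and 12% of loci. Higher were Atp5g2, Ndufab1, Ndufb4, Cox6b1 and Atp5k, with 0.80 to 0.63, and lower were Cox7a1, Cox7c, Ndufs6, Ndufaf1, Atp5l and Atp5b, with −1.48 to −0.59. This comparison shares its DMSO library with the PMA comparison in SP2bKD cells.

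Neighbouring pathway lists were counted in the same way, to be read against 8.98% of all loci below and 10.6% above. Of 13 electron carriers and nucleotide transporters 4 were below in all SP2bKD libraries and 1 above, of 26 assembly factors outside the rule 3 and 4, of 19 genes of the tricarboxylic acid cycle 4 and 2, and of 21 genes for expression of mitochondrial DNA 1 and 7. Slc25a4, an ADP/ATP carrier, was below with 265, 278, 201, 188, 217 and 157 FPKM. Citrate synthase (Cs) was above with 178, 178, 233, 205, 236 and 214, and so was Tfam, the packaging and transcription factor of mitochondrial DNA, with 31.2, 36.4, 48.5, 38, 39.4 and 45.9. Among 9 nuclear regulators Nrf1 and Esrra were above and Perm1 below; Nrf1 stayed between 25.8 and 32.4. With GFP plus EICD the list medians were −0.14 for carriers, −0.07 for the cycle, 0.05 for assembly factors outside the rule, 0.07 for mitochondrial DNA expression and 0.14 for nuclear regulators. Past 1.5-fold in that comparison were Lyrm7, an assembly factor of complex III, and Pdk2, a kinase that inhibits pyruvate dehydrogenase. Both were higher, as were 10.5% of all loci, while 2.6% of loci were lower. Lyrm7 was low in both libraries, with 0.650 FPKM with GFP and 1.13 with GFP plus EICD. With PMA, 2 of 24 assembly factors outside the rule were more than 1.5-fold lower in 427 cells, 8 of 25 were in SP2bKD cells, and 0 were higher. In the tricarboxylic acid cycle list 1 and 3 of 19 were lower and 0 higher. Of all loci, 14.4% were lower with PMA in 427 and 16.5% in SP2bKD cells. Pdk2 was lower with PMA in 427 (−1.42) and SP2bKD cells (−1.98), and its FPKM was 2.59, 0.966, 2.35, 0.588, 1.93 and 4.16. Tfb1m and Tmem126b were also lower with PMA in both lines, and Pprc1, a coactivator of NRF1, was higher in SP2bKD cells (0.89).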

How the data were processed

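Libraries of poly(A)-selected RNA were sequenced by the submitters as paired ends on a HiSeq 2500, with a kit that does not mark strand. Per the study's methods, reads were aligned with TopHat 2.1.1 and FPKM were calculated with Cufflinks 2.1.1 and Cuffdiff 2.1.1. The submitters' processing notes name GRCm38 and also STAR 2.4.0b, without a role. The authors deposited 1 FPKM value per locus and library, on gene models that include newly assembled isoforms (50 of 88 members), so that values depend on the models and on overlapping loci (19 members). Counts were not used here.

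Members were matched by symbol, and of 2 rows for Ndufa13 the one with the higher mean was kept. Log2 ratios of FPKM were computed with Python 3.11.15, NumPy 2.4.6 and pandas 2.3.3 after adding 0.01 to both libraries (for EICD to the numerator alone, where the study's methods add a smaller amount, 0.001), where either library reached an FPKM of 1. Since each of the 6 conditions had 1 library, no p-value, SD or interval between conditions was computed, and values past 1.5-fold were counted. Depth was estimated from the smallest steps of FPKM in transcripts over 2500 bases, and covers counting only. Transcript lengths came from GENCODE release M 21 and promoters from RefSeq (GRCm38.p6). Plots were drawn with matplotlib 3.10.9.

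The genes named were the 2 highest members of each complex, every member past 1.5-fold (up to 10 by size in a comparison), the isoform families, members of the other lists past 1.5-fold (up to 5 a list), Sppl2b, and members with no overlap between the lines. The last, and Ndufaf2, Ndufaf6, Atp5e, Sdhc, Slc25a4, Cs, Tfam, Nrf1, Esrra and Perm1, were chosen after their values were seen. Lists of complexes, of neighbouring pathways and of markers were written by hand from general knowledge. The members and lists were chosen with earlier results of these data known. The alternatives were 1 FPKM added to both libraries, a minimum of 10, centring on all loci, scaling to the upper quartile, and summing the rows of a symbol; leaving out libraries, scaling to the median and, for EICD, adding 0.001 were added after seeing the data. For 1 member, values are not reported here, though it enters the counts and medians.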

Additional observations from a re-analysis of the deposited data

Results flagged for a closer look

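The PMA ratios of 5 members had opposite signs in the 2 lines and were each past 0.32 on the log2 scale, higher with PMA in 427 cells and lower in SP2bKD cells. The log2 ratio in 427 cells minus that in SP2bKD cells was 2.03 for Atp5s, 1.71 for Cox7c, 1.200 for Cox7b2, 1.09 for Ndufaf5 and 0.92 for Uqcr10. Each of the 5 also had a higher FPKM with DMSO in SP2bKD than in 427 cells, and the ratios are taken to these DMSO libraries. With 1 library per condition the difference was not tested. For Cox7c the 4 FPKM values were 271 and 436 in 427 cells and 681 and 336 in SP2bKD cells, and for Uqcr10 they were 175, 247, 262 and 197. Atp5s and Cox7b2 had less than 3 FPKM in each of the 4 libraries, and for Cox7b2 that was an estimated 20.05 to 31.7 fragments.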

How the results depend on the processing

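Of 113 values that answer a comparison under an alternative, 92 stayed within 0.1 (medians, log2) or 1.5 times (counts), and 21 moved. Of 282 ratios of members past 1.5-fold under an alternative, 31 moved by more than 0.1 and 0 changed sign, while the median of GFP against DMSO went from −0.06 to 0.02 with centring. Centring on the median of all loci moved the PMA median from 0.03 to 0.15 (427 cells) and from −0.160 to −0.011 (SP2bKD cells); it moved the counts higher with PMA from 5 to 9 in either line, the count lower with PMA in SP2bKD cells from 8 to 4, the count higher in SP2bKD with DMSO from 11 to 7, and the count higher with EICD from 2 to 1. Scaling to the upper quartile gave 8 members higher with PMA in SP2bKD cells and 1 higher with EICD. With 1 FPKM added, 2 were higher with PMA in 427 cells, 0 higher in SP2bKD against 427 cells where both had PMA, and 1 higher with EICD. With a minimum of 10 FPKM these 3 counts were 3, 0 and 0, and 1 was lower with EICD. Without 1 library each, the members below in all SP2bKD libraries numbered 25 to 36 and those above 7 to 16. With the DMSO and PMA libraries only, 13 were above. Leaving out libraries can only keep or raise these counts.

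No paired analysis was possible because each condition has 1 library and no result comes from a test. The medians of mitochondrially encoded members could not be computed, since 0 such members were found. Differences between 1 library and another hold library preparation, culture and condition together, which cannot be told apart; members under about 4 FPKM rest on few fragments, and FPKM from overlapping or newly assembled loci can hold fragments of another gene.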

Other observations

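The genes of the mitochondrial ribosome, which translates the subunits encoded by mitochondrial DNA, were taken as a further list after values of these data had been seen. With GFP plus EICD against GFP, 61 of 72 had a lower FPKM, against 41.7% of all loci. The median log2 ratio was −0.21, beside −0.22 for the oxidative phosphorylation genes and 0.07 for all loci. Among loci that reached an FPKM of 50, 63.4% were lower, with a median of −0.10. Among loci with transcripts under 1000 bases 70.3% were lower, with a median of −0.18. Past 1.5-fold, 2 of 72 were lower and 0 higher, against 2.6% and 10.5% of all loci. In all 4 SP2bKD libraries 11 of 72 (15.3%) lay below both libraries of 427 cells and 5 (6.94%) above, against 8.98% and 10.6% of all loci. PMA gave medians of −0.01 in 427 and −0.06 in SP2bKD cells, against −0.12 and −0.15 over all loci.

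Lyrm7, an assembly factor of complex III, had an FPKM of 0.998, 0.863, 6.56, 0.295, 0.650 and 1.13 in the order 427 DMSO, 427 PMA, SP2bKD DMSO, SP2bKD PMA, GFP, and GFP plus EICD, so that it was high in the SP2bKD DMSO library. Ndufs4 (mean FPKM 537) and Ndufaf2 (116), both on chromosome 13, stood far above the medians of their groups, 64.7 and 12.4.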
